A study of Sus scrofa with 40 samples.

Results

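Biopsies of the corticomedullary junction (CMJ), the zone where renal cortex meets medulla, are compared here to ask what 24 h of static cold storage adds to warm ischemia. The arrays were chosen by their titles: 5 of kidneys after warm ischemia and 24 h of cold storage (WI+CS24h-CMJ) and 5 of kidneys after warm ischemia alone (WI-CMJ), which makes 10 of the 40 arrays of the series. All kidneys were those of Large White pigs aged 3 months. Kidneys of both groups were clamped, removed and kept clamped for 60 min at 37 °C; the WI kidneys were then sampled and frozen at once, whereas the stored kidneys were flushed with cold University of Wisconsin solution, kept at 4 °C and sampled at 24 h. The stored kidneys were 5 other kidneys than the WI kidneys, and the same stored kidneys had been sampled at 6 h (WI+CS6h-CMJ). Control kidneys (Ctl-CMJ), 5 again, were removed and sampled with no ischemia period, and cortex (C) was sampled in the same conditions. The pigs were brothers, no kidney was reperfused, and storage and kidney of origin therefore cannot be told apart within these 10 arrays.

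Tubules of this zone, above all the last segment of the proximal tubule, live mainly on fatty acids. Long-chain fatty acids enter mitochondria through the carnitine shuttle, whose inner enzyme is CPT2. They are then shortened by acyl-CoA dehydrogenases such as ACADVL and by the trifunctional protein HADHA/HADHB. The nuclear receptor PPARA drives many of these genes as well as PDK4. Within mitochondria, PDK4 inhibits the pyruvate dehydrogenase complex, which converts pyruvate to acetyl-CoA. Interstitial cells near the junction make erythropoietin (EPO), the hormone of red cell formation, under control of hypoxia-inducible factors. In tissue kept on ice, transcription and RNA decay are both slowed, and an array reads the RNA that is left, scaled to the whole array.

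Each array carries 60-base probes, and 35938 transcripts or genes (identifiers) could be tested in CMJ. A difference is a log2 fold change, WI+CS24h-CMJ minus WI-CMJ, and an identifier was called changed where the adjusted p was under 0.05 and the log2 fold change was 0.5 or more in either direction. CPT2, ACADVL and EPO each rest on a single probe, whereas FUT2 has 3.

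After 24 h of storage, 1024 identifiers were called, which is 2.85% of those tested: 444 were higher (1.24%) and 580 lower (1.61%), by limma with Benjamini-Hochberg adjustment. The arrays of the groups did not overlap for 1645 identifiers (4.58%; 2.35% higher and 2.23% lower), and the median log2 fold change of all identifiers was 0.02. Of the rises, 134 were at least 2-fold and 22 at least 4-fold; of the falls, 197 and 25. Only 119 of the higher and 235 of the lower identifiers carry a gene symbol, and among the 9268 tested identifiers with a symbol 3.82% were called (1.28% higher and 2.54% lower). The share of higher calls was 43.4%, but 68.7% when quantiles were matched within each group and 30.3% after another background correction. The p-values rest on the spread within all 4 CMJ groups of 5 arrays, where the 6 h and 24 h arrays are of the same kidneys, and a fit of the 2 groups alone called 463. With normexp background correction 165 were called, and of 90 called genes that are named here or in the closing section 43 lost their call in it.

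Several enzymes of fatty acid use and several genes that PPARA is known to drive were lower after storage. CPT2, ACADVL, HADHA and PDK4 fell by 0.78 to 2.38 on the log2 scale, in groups whose arrays did not overlap, and CYP4A21, saturated in WI on 1 of its 4 probes, fell as well. In contrast, FUT2, RHOV, VTCN1 and BCL6 were higher, and the phytanoyl-CoA hydroxylase PHYH of peroxisomes rose as well. The largest fitted fall of a named gene was that of the cytochrome P450 CYP2C42.

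CPT2 had a log2 signal of 8.25, 8.43, 8.70, 8.75 and 8.64 in WI-CMJ 1 to 5 and of 7.38, 7.57, 7.46, 7.73 and 7.01 in WI+CS24h-CMJ 1 to 5. Every stored sample lay below every WI sample. The change was -1.12 ± 0.17 (SE, n = 5 and 5; limma adjusted p = 0.000797), or 2.18-fold. ACADVL, which opens the oxidation of very long chains, read 10.52, 10.54, 10.61, 10.75 and 10.87 in WI and 9.84, 10.05, 10.12, 10.14 and 9.24 after storage, again without overlap and with the fifth stored kidney lowest. It fell by 0.78 ± 0.17 on the log2 scale (SE, n = 5 and 5; limma adjusted p = 0.0161). HADHA, the alpha subunit of the trifunctional protein, fell by 1.15 ± 0.21 (limma adjusted p = 0.00446) and all 3 of its probes were lower, by 0.53 to 1.49. Called as well in this list, and chosen after their values were seen, were its partner HADHB (-0.53 ± 0.14, limma adjusted p = 0.0365) and the acyl-CoA binding protein DBI (-0.66 ± 0.17, limma adjusted p = 0.0386). These were the 5 members called of 24 measured, none was higher, and 19 of the 24 had a negative sign with a list median of -0.25. Among the called, CPT2, ACADVL, HADHA and DBI (ACBP in the study) belong to the study's own panel. That panel was chosen on these same samples, so the count is no independent evidence. Of all identifiers with a symbol 2.54% were called lower, and 16267 of all 35938 identifiers had a negative sign. With 75th percentile scaling 3 were called, with quantiles matched within each group 4 were lower and 1 higher, and HADHB and DBI each lost their call under 12 of 23 alternatives. The carnitine enzyme CPT1A of the outer membrane (-0.39 ± 0.40, limma adjusted p = 0.727) and the activating enzyme ACSL1 (-0.94 ± 0.33, limma adjusted p = 0.135) did not pass the test.

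**Figure D1:**
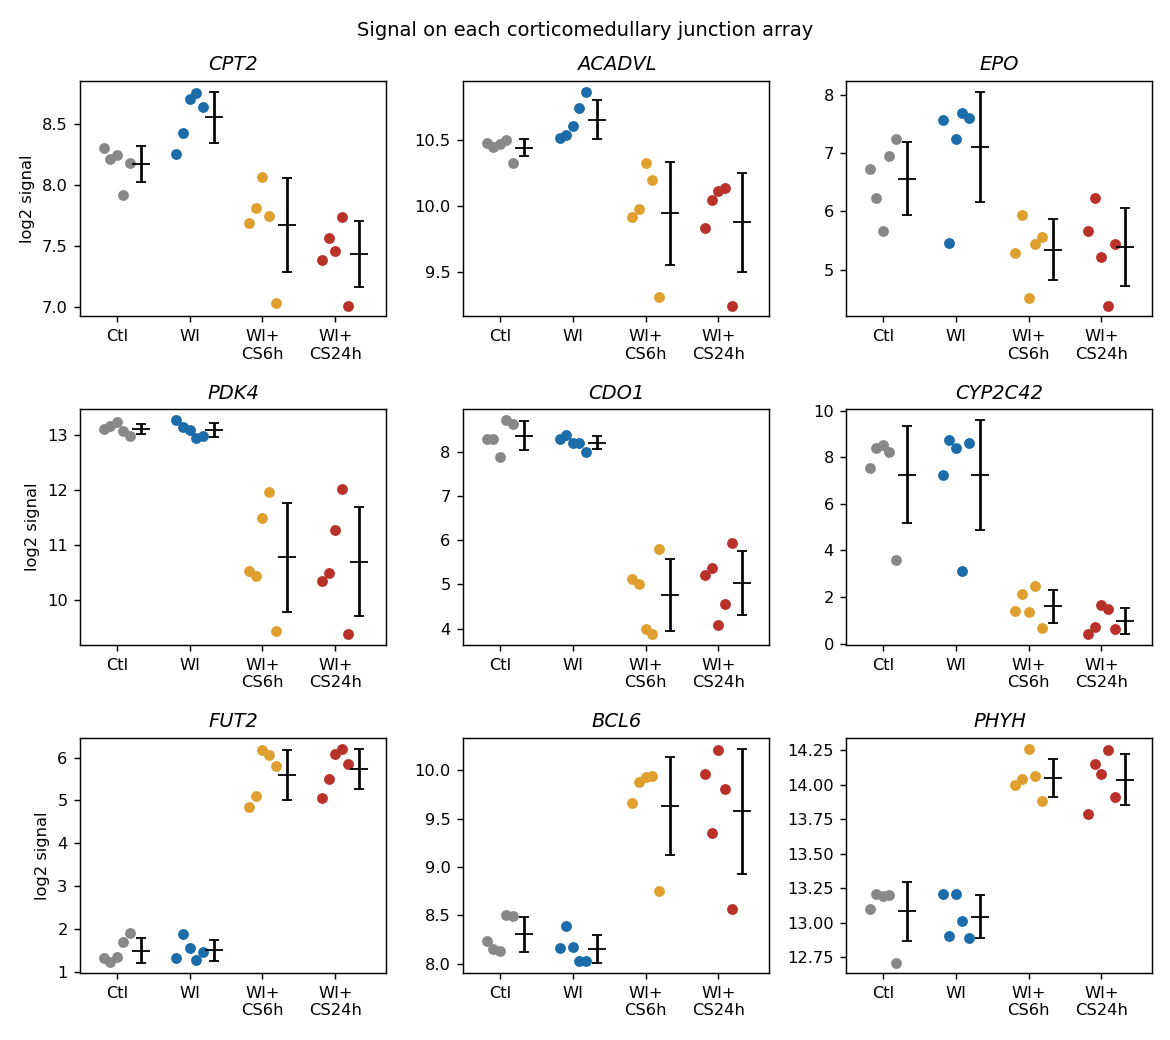
Log2 signal (vertical axis) of 9 genes on each of the 20 CMJ arrays by group (horizontal axis), with the mean and SD beside the points. The 5 WI+CS24h points of CPT2 (7.01 to 7.73) all lie below the 5 WI points (8.25 to 8.75), those of FUT2 all lie above them, and those of EPO overlap them through 1 low WI array.

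Among PPAR factors and their targets 7 of 16 measured members were lower and none higher, with a median of -0.57, beside 2.54% lower of all identifiers with a symbol. With quantiles matched within each group and with the authors' deposited log2 values, 6 were lower and 1 higher. A filter on dim identifiers gave 7 lower and 1 higher. PDK4 and ANGPTL4 belong to the study's own panel, chosen on these same samples. PDK4 had a signal of 13.26, 13.13, 13.08, 12.93 and 12.98 in WI and of 10.34, 10.48, 11.27, 12.01 and 9.38 after storage. The WI arrays lay within a narrow band and the stored arrays were all lower and far more spread. The change was -2.38 ± 0.42 (SE, limma adjusted p = 0.00352), and its 9 probes ran from -2.56 to -2.11. PLIN2, which coats lipid droplets (chosen after its values were seen), read 10.50, 10.71, 10.85, 10.41 and 11.05 in WI against 9.01, 9.20, 9.21, 9.48 and 7.14, a change of -1.90 ± 0.41 (limma adjusted p = 0.013). ANGPTL4, an inhibitor of lipoprotein lipase, fell by 1.40 ± 0.37 (limma adjusted p = 0.0371). UCP2 (-0.62 ± 0.16), a carrier of the inner mitochondrial membrane, and RXRB (-0.55 ± 0.14), a partner receptor of the PPARs, were also called and were chosen after their values were seen. ANGPTL4, UCP2 and RXRB each lost their call under several alternatives, as given in the closing section. The factors PPARA, PPARD and PPARG were not called, and PPARA had 0.84 ± 0.23 (limma adjusted p = 0.0513), a positive value beside its lower targets.

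CYP4A21 and CYP4A24 are closely related fatty acid hydroxylases. CYP4A21 fell by 1.12 ± 0.12 (SE, limma adjusted p = 6.28e-05) and CYP4A24 by 0.66 ± 0.10 (limma adjusted p = 0.00109) as the mean over probes. These sizes are not exact, because 1 of 4 probes of CYP4A21 was saturated on all 5 WI arrays and 1 of 2 probes of CYP4A24 on 4 of 5, against no stored array. The CYP4A21 probes gave -1.66, -1.43, -1.04 and -0.33, and the smallest of these belongs to the saturated probe, a fall of at least 1.26-fold. That probe shares 46 bases with the saturated probe of CYP4A24 (-0.39). The other CYP4A24 probe, which shares no such stretch and was not saturated, gave -0.92. The parts of saturation and of cross-hybridization in the small values were not told apart.

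**Figure D2:**
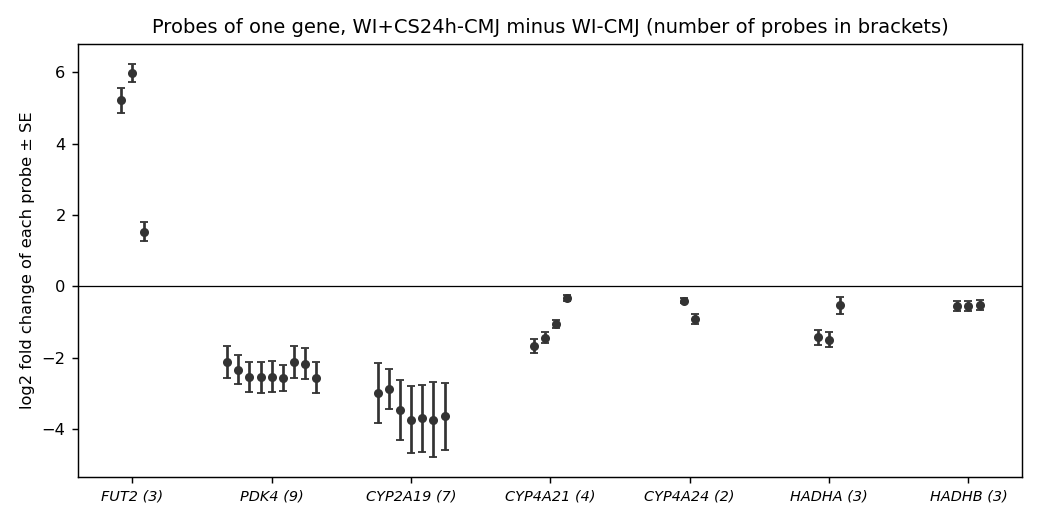
Log2 fold change ± SE of each probe (vertical axis), WI+CS24h-CMJ minus WI-CMJ, for 7 genes with more than 1 probe (horizontal axis). Probes of PDK4 and CYP2A19 lie close together, whereas those of FUT2 (1.54 to 5.98) and CYP4A21 (-1.66 to -0.33) are spread. The 2 upper FUT2 probes were not well above background in WI, and the uppermost points of CYP4A21 and CYP4A24 are probes saturated in WI.

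In peroxisomes both directions were seen. PHYH, which starts the breakdown of phytanic acid, read 13.21, 12.90, 13.21, 13.01 and 12.89 in WI and 13.79, 14.15, 14.08, 14.25 and 13.91 after storage. No stored array was as low as any WI array, and the rise was 0.99 ± 0.11 (SE, limma adjusted p = 7.96e-05). HSD17B4, an enzyme of peroxisomal beta-oxidation, fell by 0.57 ± 0.15 (limma adjusted p = 0.042), but lost its call under 16 of 23 alternatives. Of 36 measured genes of the respiratory chain and ATP synthase none was called, with values from -0.29 to 0.28 and a median of 0.11. Glucose metabolism had none called of 20 measured (median -0.13).

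**Figure D3:**
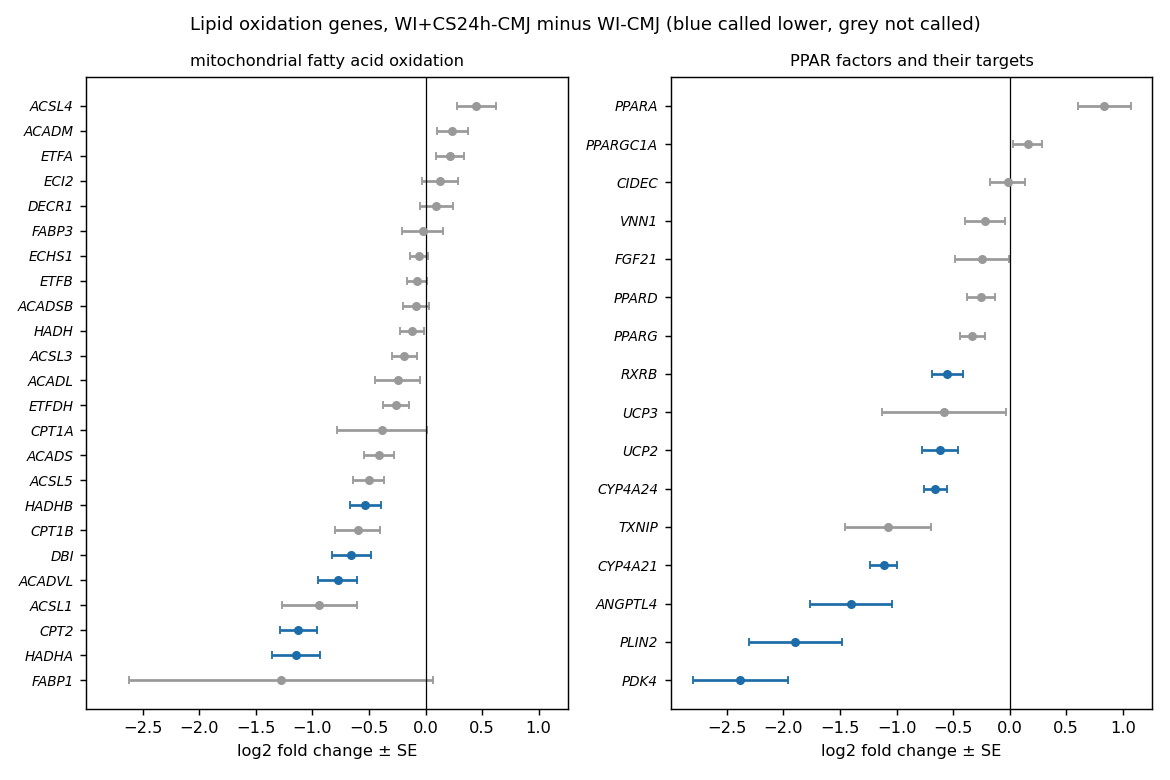
Log2 fold change ± SE (horizontal axis), WI+CS24h-CMJ minus WI-CMJ, of the measured members of 2 lists, mitochondrial fatty acid oxidation and PPAR factors with their targets (vertical axis). Called genes are blue and all of them are lower, down to PDK4 at -2.38, while PPARA at 0.84 is grey, not called.

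The drug-metabolizing enzymes held 6 falls and no rise among 33 measured members, with a median of -0.12, beside the same 2.54% lower. CYP2C42, GSTA2 and GSTT1 among them belong to the study's own panel, chosen on these same samples. CYP2C42 had a signal of 7.26, 8.75, 8.39, 3.12 and 8.61 in WI and of 0.40, 0.71, 1.68, 1.49 and 0.63 after storage. The fourth WI kidney was far below the other 4, and the stored kidneys were not well above background on any array. In the main processing the change was thus at least 26.3-fold lower (limma adjusted p = 0.00136 for the fitted value of -6.24 ± 0.98). With normexp the fitted value was -1.36 and still called, so this bound holds for the main processing only. CYP2A19 read 9.82, 10.05, 9.96, 10.36 and 10.35 in WI against 8.49, 8.57, 6.41, 6.28 and 3.59 after storage. All 5 stored kidneys were lower, by very different amounts, and the change was -3.44 ± 0.87 (limma adjusted p = 0.0319). The glutathione transferases GSTA2 (-2.52 ± 0.52, limma adjusted p = 0.0092), GSTA4 (-0.71 ± 0.08, limma adjusted p = 6.51e-05) and GSTT1 (-1.03 ± 0.28, limma adjusted p = 0.0444) fell as well. In GSTA2 the second WI kidney, at 8.33, lay among the stored ones. The farnesoid X receptor NR1H4 had -0.84 ± 0.24 and was not called (limma adjusted p = 0.0581).

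CDO1, the cysteine dioxygenase that commits cysteine to taurine and sulfate, was lower in every stored kidney than in any WI kidney. It read 8.30, 8.39, 8.20, 8.20 and 8.00 in WI and 5.22, 5.37, 4.09, 4.55 and 5.94 after storage. The change was -3.18 ± 0.35 (SE, limma adjusted p = 5.78e-05). The arginase ARG2 was measured by 2 identifiers. The dimmer had -2.56 ± 0.47 (limma adjusted p = 0.00407). This size is not exact, since 1 of its 2 probes was not well above background on any stored array (at least 2.31-fold lower). The other probe gave -2.45. With normexp the dimmer identifier had -0.38 and lost its call. The brighter had -1.24 ± 0.43 and was not called (limma adjusted p = 0.124). Of 24 measured genes of cysteine, arginine and creatine metabolism, CDO1 and the folate enzyme MTHFD1 (-0.54 ± 0.15, limma adjusted p = 0.0476) were lower. The mitochondrial creatine kinase CKMT2 was higher (0.66 ± 0.16, limma adjusted p = 0.0269). Of all identifiers with a symbol, 2.54% were called lower and 1.28% higher. CDO1 and MTHFD1 belong to the study's own panel, chosen on these same samples. The list is represented by the brighter ARG2 identifier.

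EPO had a log2 signal of 7.57, 5.45, 7.23, 7.69 and 7.59 in WI and of 5.66, 6.22, 5.23, 4.38 and 5.45 after storage. The second WI kidney lay among the stored kidneys and the other WI kidneys above all of them, so that the groups overlapped. The fall was 1.72 ± 0.43 (SE, limma adjusted p = 0.0286), and the call was lost with slide as a block, in a fit of the 2 groups alone and without WI-CMJ 1, 3, 4 or 5 or WI+CS24h-CMJ 3 or 4, with an adjusted p up to 0.114. Endothelin EDN1, a vasoconstrictor peptide, fell by 1.74 ± 0.36 (limma adjusted p = 0.0092), with 3 of 5 stored arrays well above background and a value of -0.17 with normexp, where it lost its call. DDIT4, an inhibitor of mTORC1 that hypoxia induces, fell by 0.93 ± 0.19 (limma adjusted p = 0.00854). These 3 were the calls among 27 measured HIF factors and hypoxia targets, whose median was 0.00 with 14 positive and 13 negative members. Of all identifiers with a symbol, 2.54% were called lower. In a biopsy, fewer cells of a type and less RNA per cell cannot be told apart, for EPO as for every gene here.

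FUT2, a fucosyltransferase that builds H antigen in secretions, had the largest fitted rise of the identifiers with a symbol. Its signal was 1.32, 1.89, 1.56, 1.26 and 1.46 in WI and 5.06, 5.50, 6.09, 6.21 and 5.85 after storage. Every stored array lay above every WI array, and the fitted change was 4.24 ± 0.26 (SE, limma adjusted p = 3.14e-08) as the mean of 3 probes. This size is not exact, since 2 of the probes were not well above background on any WI array and were at least 9.01-fold and 13.4-fold higher after storage. The third probe, measured on all arrays of both groups, rose by 1.54 ± 0.27. With normexp the fitted change of FUT2 was 0.51 and still called, so these bounds hold for the main processing only. TC529750, an identifier with no symbol chosen after its values were seen, was at least 22.9-fold higher, from a WI group not well above background on any array.

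RHOV, a small GTPase of the Cdc42 type, read 2.75, 3.03, 2.72, 2.70 and 2.49 in WI and 4.43, 5.03, 4.70, 4.40 and 4.29 after storage, a rise of 1.83 ± 0.15 (limma adjusted p = 2.39e-06) without overlap, with 1 of its 3 probes not well above background in WI; with normexp it was 0.32 and with the deposited matrix 0.46, not called in either. VTCN1, a coinhibitory ligand of T cells, rose by 1.72 ± 0.27 (limma adjusted p = 0.00147). WDR64, not well above background on any WI array, was at least 2.29-fold higher (limma adjusted p = 7.96e-05) but lost its call under the same 2 alternatives. MYOM2, a protein of the muscle sarcomere, had 2.34 ± 0.33 (limma adjusted p = 0.000612), with 1 of 5 WI arrays well above background, and 0.18 with normexp, where it lost its call. The remaining large rises were STK31, FAM204A, GUCY2C and CCSER1, between 1.30 and 1.53, of which STK31 (0.12) and CCSER1 (0.39) lost their call with normexp.

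BCL6, a transcriptional repressor, read 8.16, 8.39, 8.17, 8.03 and 8.03 in WI and 9.96, 9.35, 10.21, 9.80 and 8.57 after storage. The fifth stored kidney was closest to WI but still above it, and the rise was 1.42 ± 0.26 (SE, limma adjusted p = 0.00403). CEBPA, a factor of differentiated epithelium, rose by 0.80 ± 0.12 (limma adjusted p = 0.000703), whereas its relative CEBPD, an acute-phase factor, fell by 0.94 ± 0.11 (limma adjusted p = 8.11e-05). Of 45 measured genes of the NF-kB pathway and inflammatory mediators, BCL6 and CEBPA were higher, and CCL26, IL6 and the zinc finger protein ZFAND5 were lower. Of all identifiers with a symbol, 1.28% were called higher and 2.54% lower. BCL6, CEBPA, CCL26 and ZFAND5 belong to the study's own panel, chosen on these same samples. IL6 read 4.05, 3.84, 3.49, 3.86 and 3.57 in WI and 2.24, 2.39, 1.88, 1.13 and 1.57 after storage, all 5 stored kidneys below all WI kidneys, a change of -1.92 ± 0.25 (limma adjusted p = 0.000364), with 1 of its 2 probes not well above background on any stored array. With normexp it was -0.13 and with the deposited matrix -0.47, not called in either. CCL26, a chemokine for eosinophils, fell by 2.97 ± 0.55 (limma adjusted p = 0.00454). CCL2, which attracts monocytes, had 0.59 ± 0.22 without overlap of the groups but was not called (limma adjusted p = 0.154), and TLR4 had 0.24 ± 0.19 (limma adjusted p = 0.609).

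Immediate early genes, the first to respond to stress and growth factors, went both ways: 2 of 34 were higher, 4 lower, and the median was 0.02. Of all identifiers with a symbol, 1.28% were called higher and 2.54% lower. The orphan receptor NR4A2 rose by 1.30 ± 0.32 (limma adjusted p = 0.0274) and IER3 by 0.60 ± 0.15 (limma adjusted p = 0.0316). KLF5 fell by 0.78 ± 0.12 (limma adjusted p = 0.00124), CITED2 by 0.60 ± 0.12 (limma adjusted p = 0.00837), and the matrix protein CTGF, chosen after its values were seen, by 0.68 ± 0.17 (limma adjusted p = 0.0328). KLF5 lost its call with normexp and with the deposited matrix, with a weakest value of -0.10, and CITED2 with normexp (-0.45). FOS (0.43 ± 0.25, limma adjusted p = 0.427), EGR1 (0.02 ± 0.25, limma adjusted p = 0.99) and JUN (0.13 ± 0.18, limma adjusted p = 0.83) were not called. In WI against Ctl, which shares the WI arrays, the same genes had 2.59 ± 0.25, 2.34 ± 0.25 and 0.81 ± 0.18, all called higher.

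Regulators of signalling were called in both directions, 21.1% of one list and 11.8% of the next, beside 3.82% of all identifiers with a symbol. None of either list was called with normexp background correction. MAP3K5, MLK4, EXPH5, RABGAP1, DYRK2 and VAV3 belong to the study's own panel, chosen on these same samples, so these shares are no independent evidence. The kinases MAP3K5 (-0.90 ± 0.13) and MLK4 (-1.06 ± 0.18) and the Rab27 effector EXPH5 (-0.61 ± 0.15) were the 3 falls among 19 measured MAP kinase and small GTPase regulators, and RABGAP1 (0.52 ± 0.11) the rise. Among 34 genes of TGF-beta, BMP and growth factor signalling, the kinase DYRK2 rose (0.67 ± 0.10), and BMP2 (-0.73 ± 0.19) and the exchange factor VAV3 (-0.52 ± 0.13) fell; the last call was BMP6, which was not well above background on any array of either group and so has no fold. The list of RNA polymerase, splicing and RNA turnover held 4 rises and 2 falls of 17, beside 1.28% and 2.54% of all identifiers with a symbol. It was drawn up with genes of the study's own panel in it, and all of its calls are such genes. The count is therefore no result about RNA genes. FUT2, the fourth rise, is a glycosyltransferase and no RNA enzyme. The study put PARP4 under MAPK and GTPase activity and LRCH1 under metabolism. LEO1 of the PAF1 complex (0.72 ± 0.12) and the histone chaperone HIRA (0.53 ± 0.09) rose, as did the RNase DICER1 (0.52 ± 0.10), and PARP4 of the vault particle (-0.62 ± 0.11) and LRCH1, a leucine-rich repeat protein (-0.97 ± 0.18), fell.

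Chaperones had 2 rises of 24 (DNAJA4 0.84 ± 0.17 and CHORDC1 0.57 ± 0.13) with a median of 0.17; HSP70 itself had -0.55 ± 0.30 and was not called (limma adjusted p = 0.386). Single calls, to be read beside the 3.82% called of all identifiers with a symbol, were found for the histone HIST1H2BD (0.52 ± 0.10) of 8 histone genes (12.5%), TMEM14A (0.73 ± 0.17) of 24 p53 targets and apoptosis genes (4.17%), HMOX2 (-0.53 ± 0.13) of 23 NRF2 factors and antioxidant enzymes (4.35%), USP2 (-0.54 ± 0.11) of 17 genes of ubiquitin, autophagy and lysosome (5.88%), and DNAJC3 (-0.74 ± 0.15) of 16 of the unfolded protein response (6.25%). Of 30 interferon-stimulated genes only MX2 was called (3.33%), and it fell by 0.81 ± 0.19 (limma adjusted p = 0.0201), yet 27 had a negative sign and the median was -0.48. No gene was called among 18 of cell division, 21 of cholesterol and lipid synthesis, 11 of clock and cold response, 52 cytosolic ribosomal proteins and 28 proteasome subunits.

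**Figure D4:**
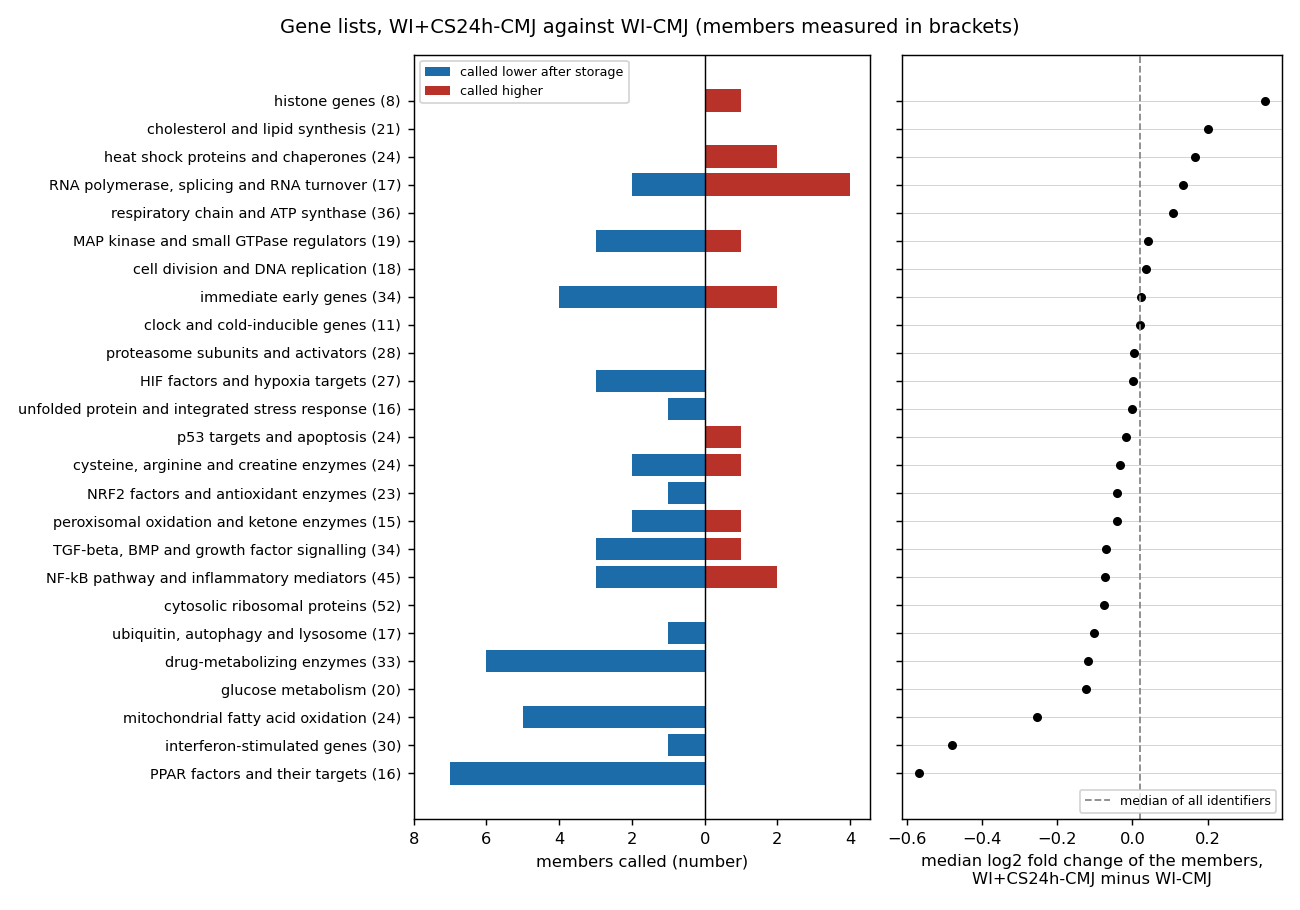
Left, number of members called lower (bars to the left of 0) or higher (bars to the right) in each of 25 gene lists; right, the median log2 fold change of the measured members, with the median of all identifiers (0.02) as a dashed line. PPAR factors and their targets have the most falls (7 of 16) and the lowest median (-0.57).

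The study named a panel of genes in 8 categories, chosen on these same samples, so the counts are no independent evidence. A gene that the study put in several categories is counted once here, in a single category (PLK3 under protein folding and JUN under cell cycle, not under MAPK), and a snoRNA cluster of the nucleus category was not analysed here. Of 9 genes of mitochondria and redox state 7 were lower and none higher, and of 10 genes of metabolism 6 were lower and FUT2 was higher. The panel's ACBP was read there through an identifier of that name (-0.61 ± 0.19, limma adjusted p = 0.0878, not called), while another identifier of the same gene, named DBI, is the one called lower above. The MAPK and GTPase genes had 5 falls and 1 rise of 9, the nucleus and transcription genes 3 rises of 7, and the inflammation and apoptosis genes 3 rises and 2 falls of 11. Cell cycle and differentiation had 2 and 2 of 15, and none of 5 genes of protein folding and proteasome was called. Of 6 transporters, the export pump ABCC2 rose (0.88 ± 0.13, limma adjusted p = 0.000743), and the potassium channel partner KCNIP4 (-1.98 ± 0.31, limma adjusted p = 0.00122) and the water channel AQP3 (-0.88 ± 0.21, limma adjusted p = 0.0245) fell. DLK1, a Notch-like membrane protein (-2.71 ± 0.31, limma adjusted p = 8.11e-05), and the imprinted gene NNAT (-1.91 ± 0.30, limma adjusted p = 0.00136) were also lower. With normexp DLK1 had -0.26, NNAT -0.40 and KCNIP4 -0.20, and all lost their call.

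Markers of the cells the biopsy could hold were read on the same arrays. None of 13 measured proximal tubule markers and none of 8 of the thick ascending limb was called, and all were well above background. The summed linear signal of the proximal tubule markers ran from 166000 to 188000 in WI and from 150000 to 216000 after storage. Of 8 markers of collecting duct principal cells, AQP3 was lower and the sodium channel subunit SCNN1G was higher (0.97 ± 0.18, limma adjusted p = 0.00555). Of 6 leukocyte markers none was called, 5 were negative and the median was -0.59, with sums of 1720 to 2930 in WI and 927 to 2090 after storage. Their part in the mostly negative, largely uncalled values of interferon-stimulated genes and in the fall of IL6 was not tested. The 11 skeletal muscle markers had sums of 346 to 424 and of 411 to 671, with MYOM2 as the call, while the defining markers MB and MYH2 were not well above background in either group and ACTA1 had -0.07 ± 0.13. The muscle creatine kinase CKM had 1.92 ± 0.58 and was not called (limma adjusted p = 0.0755), but it was called under 5 of 23 alternatives. Neutrophil markers had sums of 17.9 to 28.6 in WI and 11.7 to 1970 after storage, with none of 4 called. No marker was called among 5 of fibroblasts, 5 of smooth muscle, 5 of endothelium, 6 of fat cells, 4 of red cells, 3 of distal tubule, 4 of the inner medulla, 2 of intercalated cells, 2 of podocytes and 7 of tubule injury. Spots well above background made up 64.71% ± 2.04 of a WI array and 63.85% ± 1.36 of a stored array (SD, n = 5 and 5; exact permutation test over 252 splits, two-sided p = 0.437).

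Both groups had arrays on 4 shared slides, so differences could be read within a slide. CPT2 was lower by -1.18, -0.97, -1.26 and -0.97 within these slides, and FUT2 higher by 4.24, 4.20, 3.60 and 4.65. ACADVL gave -0.69, -0.42, -1.03 and -0.47 and EPO -1.47, -0.23, -1.93 and -2.85, so that on 1 slide EPO hardly differed. On the 2 scan days CPT2 had -1.13 and -1.11, ACADVL -0.80 and -0.75, and EPO -1.27 and -2.39.

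The length of storage was set beside these values. After 6 h against WI, a comparison that shares the WI arrays, 1000 identifiers were called (2.78%; 494 higher, 1.37%, and 506 lower, 1.41%), but 65 with slide as a block and 144 with normexp. FUT2 had 4.10 ± 0.26 at 6 h and 4.24 ± 0.26 at 24 h, PDK4 -2.31 and -2.38, CDO1 -3.46 and -3.18, EPO -1.76 and -1.72, and CPT2 -0.89 and -1.12. Between 24 h and 6 h of storage 1 identifier was called (0.00278%), A_72_P273339, named because it was the single one, and it was not well above background in either group; 1238 had an unadjusted p under 0.05. The same kidneys were in both groups, and with the replicate number as a block no identifier was called by limma (kidney as a random block gave 5 calls and 3100 at an unadjusted p under 0.05). Of the 1024 identifiers called at 24 h against WI, 987 (96.4%) differed by less than 0.5 between 24 h and 6 h, with a median absolute difference of 0.08. CPT2 was lower at 24 h than at 6 h in each of the 5 kidneys, by -0.307, -0.246, -0.607, -0.0079 and -0.021. The mean difference was -0.24 ± 0.11 with kidney as a random block (SE, limma unadjusted p = 0.0503, adjusted p = 0.579), which does not show that the times act alike.

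Against Ctl-CMJ, 24 h of storage after warm ischemia gave 1313 calls (3.65%; 486 higher, 1.35%, and 827 lower, 2.3%), and warm ischemia alone 247 (0.687%). CPT2 in WI had 0.38 ± 0.17 against Ctl (limma adjusted p = 0.342) and after storage -0.74 ± 0.17 (limma adjusted p = 0.0126). EPO had 0.55 ± 0.43 and -1.17 ± 0.43 and was called in neither, and FUT2 had 0.01 ± 0.26 and 4.25 ± 0.26.

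In cortex the same contrast gave 433 calls (1.2%; 0.637% higher and 0.568% lower). FUT2 had 4.61 ± 0.28 there, CPT2 -1.03 ± 0.20 and PDK4 -2.27, while EPO had -0.75 ± 0.60 (limma adjusted p = 0.726) and IL6 -0.72 ± 0.37 (limma adjusted p = 0.502). FOS (1.28 ± 0.22, limma adjusted p = 0.00519) and EGR1 (1.14 ± 0.24, limma adjusted p = 0.0194) were called higher in cortex. The test of the difference between the tissues called 0 of 35934 identifiers by limma, with 669 at an unadjusted p under 0.05. This fit took all arrays as independent, whereas per the study's methods each kidney gave both tissues, and the labels do not say which samples belong together. With samples of one number taken as one kidney and kidney as a random block, chosen after seeing the data, limma again called 0, with 863 at an unadjusted p under 0.05. For EPO the difference between tissues was -0.97 ± 0.75, for IL6 -1.20 ± 0.46, for FOS -0.85 ± 0.34 and for EGR1 -1.13 ± 0.35, each with a limma adjusted p of 1.

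**Figure D5:**
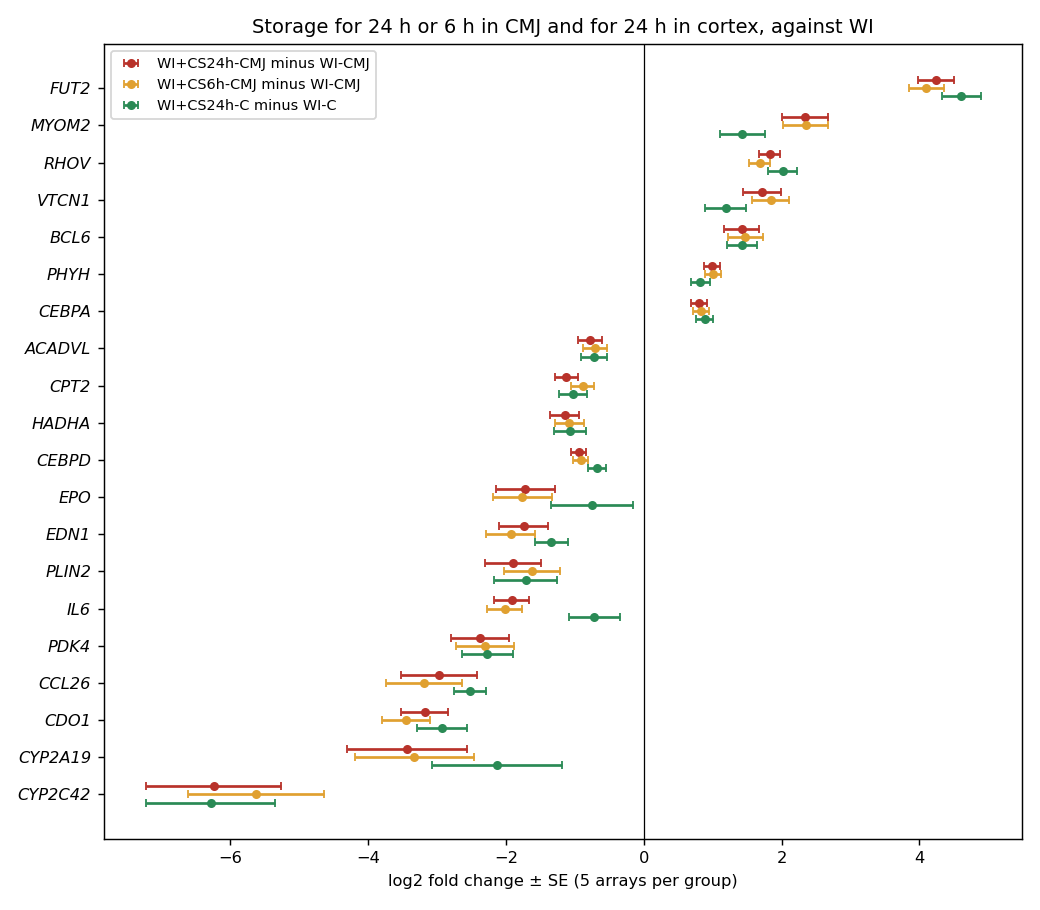
Log2 fold change ± SE (horizontal axis) of 20 genes (vertical axis) after 24 h (red) or 6 h (yellow) of storage in CMJ and after 24 h in cortex (green), each against WI of the same tissue with 5 arrays per group. The CMJ comparisons share their WI arrays; FUT2 lies between 4.10 and 4.61 in all 3.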

How the data were processed

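Total RNA of porcine kidney biopsies was labelled with Cy3 and hybridized on Agilent porcine 44k arrays, 1 array per sample. Per the labels, the images were quantified with Agilent Feature Extraction 11.5.1.1. The authors deposited the intensity of each spot, which Feature Extraction had background-subtracted and detrended and which was not normalized between arrays. The authors also deposited a matrix of log2 values, made with R 2.15.2 and limma; over the identifiers it equalled the log2 median pixel signal with no background taken off and with quantiles matched across the 40 arrays, at a median absolute difference of 2.97e-10, and it served as an alternative only. No genome build is involved, and probe positions are not given in the sources used here.

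From the processed intensity, 43803 non-control spots were taken to log2, spots flagged as outliers were treated as missing, the 40 arrays were quantile normalized together, and spots of one systematic name were averaged to 35955 identifiers. An identifier counted as well above background if 1 or more of its probes did. Symbols came from the array files (8022), RefSeq tables and descriptions, 9271 in all. The 20 CMJ arrays were fitted with 1 term per group (limma 3.58.1 and statmod 1.5.0 in R 4.3.3; figures with Python 3.11.15 and matplotlib 3.10.9), with Benjamini-Hochberg adjustment over all identifiers; differences between tissues were tested as interactions over all 40 arrays. The number of arrays limits the precision. For a group below background on all of its arrays, a bound on the fold change was computed against the higher of the lowest signal well above background and the probe's own signal.

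Groups and numbers were taken from the labels. Samples of one number in WI+CS6h-CMJ and WI+CS24h-CMJ come from the same kidney per the labels, and their deviations from the group means correlated at 0.332 to 0.608. Named genes are the 10 largest rises and falls among called identifiers with a symbol, without overlap of the groups and well above background in the higher group; CPT2, ACADVL and EPO; up to 3 called members per list and direction by smallest p; and the panel of the study. In the lists, markers and panel a gene with several identifiers is represented by the brightest. Among the 10 largest rises and falls it is represented by the identifier with the smallest p. The comparison, genes and lists were chosen with earlier results of these data known. The alternatives were scaling to the 75th percentile, quantile normalization within CMJ or within each group, a filter on dim identifiers, normexp background correction with an offset of 50, the brightest probe, the deposited matrix, blocks for replicate number, slide, scan day and kidney, a fit of 2 groups, a covariate for the share of spots well above background, and leaving out each array. The fits were tested on simulated data. A search of promoters for motifs was not run, since no promoter table was given. Of the genes that the rule names, 1 is not reported here, nor are the probe sequences.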

Additional observations from a re-analysis of the deposited data

Results flagged for a closer look

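A gene was singled out where 1 array of a group of 5 lay far from the other 4, its gap to the nearest being more than 0.71 of the range of the group. This held for 19 of 254 groups of arrays (127 genes, 7.48%), and chance gives about 1 in 20. Among the WI arrays, WI-CMJ 2 was lowest for VTCN1 (log2 signal 5.79), EPO (5.45), GSTA2 (8.33) and KCNJ10 (1.85) and highest for ZFAND5 (10.49). WI-CMJ 4 was lowest for CYP2C42 (3.12), WI-CMJ 1 was lowest for PNPLA2 (7.77) and highest for RABGAP1 (7.16) and TMX4 (7.03), and WI-CMJ 5 was highest for GATA3 (8.86). Among the stored kidneys, WI+CS24h-CMJ 5 was lowest for KCNIP4 (1.68), GATA3 (8.40), PLIN2 (7.14), SLA-5 (8.91) and CYP3A46 (6.70). WI+CS24h-CMJ 3 was lowest for CYP4A24 (12.4) and ABCC2 (10.92), WI+CS24h-CMJ 4 was lowest for the creatine kinase CKM (6.74), and WI+CS24h-CMJ 2 was highest for KCNJ10 (5.68).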

How the results depend on the processing

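The count of 1024 identifiers called after 24 h against WI became 1695 with quantile normalization within each group (68.7% of them higher, at a median log2 fold change of 0.17), 165 with normexp background correction (30.3% higher), 466 with the deposited matrix and 463 in a fit of the 2 groups alone. Leaving out 1 array gave 664 (without WI-CMJ 5) to 1071 calls. The remaining alternatives gave 817 to 1171. In this comparison the groups share only replicate numbers (correlations of -0.10 to -0.01 between samples of one number), and with these numbers as a replicate block 1153 were called. The 1000 calls at 6 h against WI became 65 with slide as a block, 144 with normexp, 475 with the deposited matrix, 614 with the share of spots well above background as a covariate and 1605 with quantiles within each group, and 587 to 1066 with 1 array left out (587 without WI-CMJ 5 and 654 without WI-CMJ 3). Between 24 h and 6 h, quantiles within each group gave 352 calls, kidney as a random block 5, and 0 remained with 75th percentile scaling, the filter, normexp, the deposited matrix, the fit of 2 groups, the covariate, the slide block and the replicate block; leaving out 1 array gave 0 to 1. The tissue difference had 79 calls with quantiles within each group, cortex 111 with normexp, and the 247 calls of WI against Ctl became 110 with 75th percentile scaling and 33 with normexp.

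For the gene lists, normexp left 0 calls for MAP kinase and GTPase regulators, NRF2, TGF-beta, chaperones, histones, interferon-stimulated genes, p53 and ubiquitin, and 3 each for RNA polymerase and for immediate early genes. Quantiles within each group gave 8 for NF-kB, 4 each for chaperones and histones, 3 for the unfolded protein response, 2 each for NRF2 and p53 and 0 for ubiquitin. With 75th percentile scaling, mitochondrial fatty acid oxidation had 3 calls, TGF-beta 2, and NRF2 and histones 0. The filter gave 4 for chaperones and 2 each for NRF2, histones and interferon-stimulated genes; the brightest probe gave 5 for HIF, 2 for NRF2, 1 each for ribosomal proteins and peroxisomes and 0 for histones; the deposited matrix gave 2 each for MAP kinase and NRF2, 3 for RNA polymerase and 1 for glucose. PPAR factors and their targets and drug-metabolizing enzymes stayed within 1.5 times their counts under these alternatives. BMP6, below background in both groups, changed sign with normexp (0.0239). Of 90 called genes that are named, 25 kept their call under every alternative, among them FUT2, BCL6, PHYH, CPT2, HADHA, PDK4, CDO1 and CYP2C42. Sizes moved more than calls: with normexp the log2 fold change was 0.51 for FUT2, -1.36 for CYP2C42, -1.39 for CDO1, -0.70 for CPT2, 1.00 for BCL6, -1.04 for HADHA, -2.21 for PDK4 and 0.95 for PHYH. Of the 90, 43 lost their call with normexp, 36 in the fit of the 2 groups alone, 26 without WI-CMJ 5, 20 with slide as a block and 15 with the deposited matrix. ACADVL lost it in the fit of the 2 groups alone (adjusted p = 0.0594 by limma), and GUCY2C, CYP2A19, GSTT1, ANGPTL4, HSD17B4, HADHB, DBI, UCP2, RXRB, MTHFD1, HMOX2, VAV3, IER3, BMP2, BMP6, HPGD and CYP3A46 under 10 or more alternatives.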

Other observations

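The following called falls outside the lists above were all chosen after their values were seen. The lipase PNPLA2, which opens lipid droplets, had -1.12 ± 0.21 (limma adjusted p = 0.00454), the factor KLF15 of fasting metabolism -0.84 ± 0.12 (limma adjusted p = 0.000752), and MLYCD, which removes the malonyl-CoA that blocks fatty acid entry, -0.68 ± 0.15 (limma adjusted p = 0.0157). CYP27A1, a sterol hydroxylase of mitochondria, had -1.09 ± 0.20 (limma adjusted p = 0.00424). The clotting protein F10 had -1.58 ± 0.16 (limma adjusted p = 2.94e-05), the complement protein C8G -1.31 ± 0.17 (limma adjusted p = 0.000364), the brush border enzyme ACE -1.28 ± 0.22 (limma adjusted p = 0.0028) and the glycerol channel AQP7 -1.26 ± 0.24 (limma adjusted p = 0.00535). All 5 stored kidneys lay below all 5 WI kidneys in each of these genes. The ectonucleotidase ENTPD1 (-1.60 ± 0.30), the pioneer factor FOXA1 (-1.47 ± 0.20, 1 of 3 probes not well above background after storage) and the antigen presentation genes SLA-5 (-1.27 ± 0.25) and SLA-DOA (-1.08 ± 0.16) were called lower without overlap as well. With normexp FOXA1 (-0.079), ENTPD1 (-0.40), MLYCD (-0.27), CYP27A1 (-0.46) and C8G (-0.31) lost their call.

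Among rises chosen in the same way were the pseudokinase TRIB1 (0.85 ± 0.10, limma adjusted p = 0.000184), the intermediate filament gene NES (1.15 ± 0.16, limma adjusted p = 0.000612), the anion exchanger SLC26A7 (0.94 ± 0.23, limma adjusted p = 0.026) and the prostaglandin-degrading enzyme HPGD (0.77 ± 0.19, limma adjusted p = 0.0294, 1 of 2 probes not well above background in WI), all without overlap of the groups. SLC26A7 (0.18) and HPGD (0.079) lost their call with normexp. The values of these 4 rises at 6 h against WI, which share the WI arrays, were 0.82, 1.13, 0.73 and 0.81.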
